A study of Mus musculus with 2 samples.

Results

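The strong isolated regions of epididymal white adipose tissue (eWAT) are 347 places in the mouse genome where PPARγ was mapped in white fat, with a high deposited score and with no other listed region close by. They were chosen by position and by score from the 4711 regions of the authors' eWAT-specific list, and they make up 347 of the 8268 regions in the eWAT and brown adipose tissue (BAT) lists together. A region was kept when no other eWAT region and no BAT region had its midpoint within 12.5 kb. Its score also had to be at or above the 90th percentile of the eWAT list (5.57) and no higher than the highest score of the BAT list, a limit set on the assumption that reads pile up at loci with higher values. The score and these short-range distances are therefore descriptions of how the regions were selected, not results. The data come from PPARγ chromatin immunoprecipitation and sequencing (ChIP-seq) in male 129SV mice aged 8 to 10 weeks, on normal chow with 12 h of light and 12 h of dark. Both fat depots were taken at zeitgeber time 10 h. ChIP DNA of 4 mice per tissue was combined into 1 library, so no value has a replicate check, and whole fat tissue holds other cell types beside fat cells. Positions are given 1-based and read as mm9, 1 of the 2 builds (mm8 and mm9) that the submitters' processing notes name. They were not matched to a genome or to genes, so sites are named by position alone.

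PPARγ is the nuclear receptor that directs the formation of fat cells and the storage of lipid in them, and it is the target of the thiazolidinedione drugs. It binds DNA together with a partner receptor, RXR, at a pair of short direct repeats, often in enhancers far from the genes they act on. Brown and white fat cells both depend on PPARγ, and regions bound in one depot alone are studied as candidates for what makes the depots differ. Clusters of enhancers are common near the genes that define a cell type. Isolation here is among the deposited tissue-specific regions alone, since PPARγ regions shared by both depots were not analysed here.

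Most of these sites sat just above the score limit, and a few stood far above it. The median score was 6.97, with quartiles of 5.92 and 8.36, against a median of 2.79 in the whole eWAT list. Scores in the eWAT list rise in even steps of 0.348, as would a read count multiplied by a constant, and dividing a score by this step gives its number of score steps. In these terms the strong isolated regions ran from 16 to 54 score steps, with a median of 20. The lowest score, 5.57, was shared by 62 regions, and 195 of the 347 (56.2%) had 20 score steps or fewer. A score of 10 or more was reached by 45 regions (13.0%). No unit is given for the score. If 1 step is 1 sequenced tag, the lower limit of 16 steps has an exact 95% Poisson interval of 9.15 to 26.0 tags, which covers counting error only. On that reading, 80 regions (23.1%) had an interval that lay wholly above the limit.

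**Figure D1:**
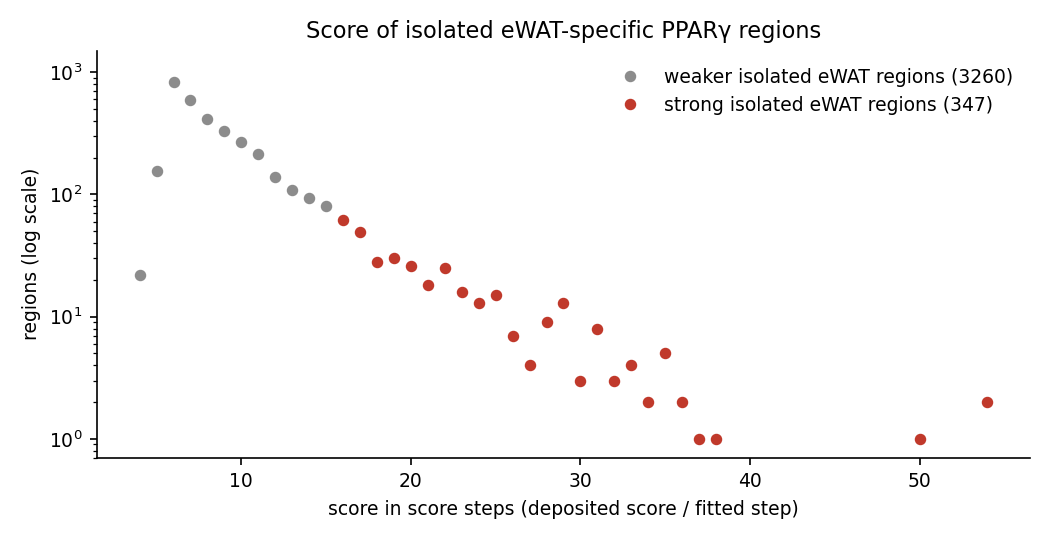
Number of isolated eWAT-specific regions (vertical axis, log scale) at each score, given in score steps (horizontal axis). Grey points are the 3260 weaker isolated regions, which end at 15 steps, and red points are the 347 strong ones, of which 3 lie apart at 50 and 54 steps.

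The members at the limits of the rule show how narrow its edges are. Among members at the lowest score were chr1:100811655-100811854, chr1:135697916-135698115 and chr1:191738545-191738744, each at 16 score steps. Just outside, 81 isolated regions stood 1 step lower, at a score of 5.23, among them chr1:13259601-13259800, chr1:82113152-82113351 and chr1:120207714-120207913. At the upper limit 5 isolated regions were left out, and the one nearest to the limit, chr1:157643013-157643212, had a score of 20.55. On the distance limit, chr13:13580165-13580364 was kept with an eWAT region 12.87 kb away, and chr11:11744529-11744728 was left out with one 12.49 kb away. Of the 484 eWAT regions within the score limits, 119 were left out for an eWAT neighbour alone, 15 for a BAT neighbour alone and 3 for both.

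Of these isolated white fat sites, 3 stood apart from the rest by score. The region chr13:100507346-100507545 reached 18.81, the highest value, which is 54 score steps with a 95% Poisson interval of 40.6 to 70.5. The next eWAT region was 609.6 kb away and the next BAT region 1011 kb away, so no listed region of either depot was within 500 kb of it. The region chr4:155164273-155164472 had the same score but an eWAT region only 13.21 kb away, a weak one with a score of 3.14. The region chr10:89736245-89736444 reached 17.42 (50 score steps, interval 37.1 to 65.9). Its nearest eWAT region was 36.5 kb away, while the nearest BAT region lay 2799 kb away and was itself high in its own list, with a score of 12.22. Whether piled-up reads contribute to these 3 scores, as the upper limit assumes for higher ones, was not tested.

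After a gap from 17.42 down to 13.24, the scores of the next members fell in small steps. The region chr11:86409698-86409897 scored 13.24 (38 score steps) and chr2:166844991-166845190 scored 12.89. Both had no region of either list within 100 kb. A score of 12.54 was reached by chr15:66850375-66850574, with a BAT region 64.4 kb away, and by chr2:65066152-65066351, whose nearest eWAT region was 1029 kb away.

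A run of 5 members shared the score of 12.19, or 35 score steps. The region chr15:61394335-61394534 had 4 other eWAT regions within 100 kb and no BAT region there. At chr5:99817855-99818054 the nearest BAT region was 3100 kb away, while an eWAT region lay 43.4 kb away. At chr5:103956371-103956570 the nearest eWAT region was 138.3 kb and the nearest BAT region 805.9 kb away. On chromosome 7, chr7:29096177-29096376 and chr7:141180098-141180297 lay 600.6 and 1213 kb from the nearest BAT region. All 5 were thus farther from the BAT list than from their own.

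The other members among the 20 highest had scores of 11.15 to 11.84. Close BAT regions were the feature of chr11:75064681-75064880 (score 11.84), whose nearest BAT region, 18.1 kb away, was nearer than any eWAT region, at 57.7 kb. By contrast, chr16:32238102-32238301 (score 11.84) lay 576.5 kb from the BAT list, and its nearest eWAT region, 192.0 kb away, was strong too, with a score of 7.66. At a score of 11.50, chr12:87593734-87593933 had regions of both depots at nearly the same distance, 143.2 kb for eWAT and 149.0 kb for BAT. The region chr17:14916261-14916460 (score 11.50) had 3 eWAT regions within 100 kb and no BAT region. At chr4:132782033-132782232 and chr5:114866814-114867013, also at 11.50, BAT regions lay 95.96 and 45.7 kb away. The last of the 20 were chr11:59884770-59884969 and chr9:108244843-108245042, each at 11.15, a score that chr9:120290566-120290765 shared as the next in order. The region chr9:108244843-108245042 was flanked by BAT regions on both sides, the nearer at 50.2 kb, and its nearest eWAT region was 386.6 kb away.

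No chromosome other than Y was without a strong isolated white fat site, but the height of the highest site differed. It was 10.80 on chromosome 3, at both chr3:59918586-59918785 and chr3:106308136-106308335, and 10.45 on chromosome 1 (chr1:186653878-186654077). It was 10.10 on chromosome 19 (chr19:42381568-42381767) and on chromosome 6, where chr6:38692613-38692812, chr6:113630155-113630354 and chr6:142394914-142395113 shared it. On chromosome 8 it was 9.75, at chr8:11038967-11039166, and on chromosome 18 it was 8.01, at chr18:24285486-24285685. On chromosome 14 (chr14:66748896-66749095) and chromosome X (chrX:137125669-137125868) it was 6.97, the median of all members. The region on chromosome 1 had 5 BAT regions and 1 eWAT region within 100 kb. These highest sites of the chromosomes were picked after their values were seen.

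Within 50 and 100 kb, strong sites had white fat neighbours more often than weaker isolated sites did, and brown fat neighbours about as often. Isolation here holds only to 12.5 kb: 189 of the 347 strong isolated regions (54.5%, exact 95% binomial interval 49.1 to 59.8%) had another eWAT region within 100 kb. Of the 3260 weaker isolated eWAT regions, those under the 90th percentile, 44.8% did (interval 43.0 to 46.5%). Within 50 kb the shares were 35.7% (interval 30.7 to 41.0%) for strong and 27.4% (interval 25.8 to 28.9%) for weaker regions. Farther out they were close: 74.9% (interval 70.0 to 79.4%) and 72.3% (interval 70.7 to 73.8%) within 250 kb. Within 1000 kb they were 95.1% and 95.2%. Over all 4711 eWAT regions, crowded ones included, the shares were higher than in either set, 56.8% within 100 kb and 42.6% within 50 kb. A BAT region lay within 50 kb of 13.0% of strong regions (interval 9.62 to 17.0%) and of 12.4% of weaker ones (interval 11.3 to 13.6%). The same rule of distance applied to the strong and the weaker isolated set, and the score was not used to count neighbours. The intervals treat regions as independent, which neighbours are not, and with 1 library no test of the difference was made.

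The median distance to the nearest other eWAT region was 82.8 kb (95% interval of the median 66.2 to 107.3 kb) for strong isolated regions and 117.3 kb (111.5 to 123.6 kb) for weaker ones. The median distance to the nearest BAT region was 263.3 kb (219.8 to 306.2 kb) and 249.9 kb (237.2 to 261.5 kb), and these intervals overlap. Within 1000 kb, strong regions had a mean of 5.91 eWAT and 4.05 BAT regions, and weaker ones had 5.71 and 3.83. Regional differences in read coverage along the genome were not tested.

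**Figure D2:**
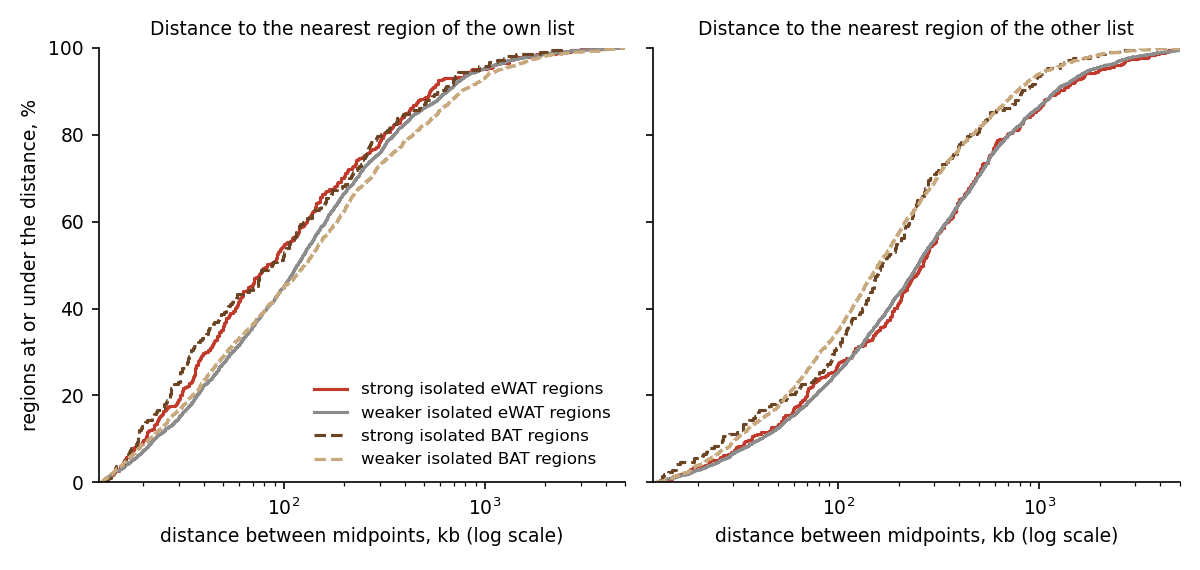
Share of regions (vertical axis, percent) whose nearest listed region lies at or under a given distance (horizontal axis, kb, log scale), for the own list (left) and the other list (right). On the left the curves of strong regions (red for eWAT, dark brown dashes for BAT) run above those of weaker isolated regions of the same list (grey and tan) over most of the range, whereas on the right the red and grey curves nearly coincide.

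Strong isolated brown fat sites gave similar shares and distances in their own list. The same rule applied to the BAT list, with its own 90th percentile of 6.87, gave 217 strong isolated BAT regions. Scores in the BAT list rise in finer steps of 0.0687, so these regions started at 100 score steps, against 16 in the eWAT list. The strong sets of the lists are thus not matched in score steps, and what this does to the comparison was not tested. Of these, 38.7% (interval 32.2 to 45.5%) had another BAT region within 50 kb, against 28.8% (interval 27.0 to 30.7%) of the weaker isolated BAT regions. Their median distance to the nearest other BAT region was 87.1 kb (58.7 to 115.1 kb), close to the 82.8 kb of the white fat sites. In both lists, strong isolated sites thus had an own-list neighbour within 50 kb more often than weaker ones. Whether the lists differ in this was not tested.

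Across the isolated eWAT regions, the share with a white fat neighbour was higher in most higher classes of score. It was 24.0% (interval 21.4 to 26.7%) at 4 to 6 score steps, 26.5% at 7 to 9, 32.0% at 10 to 12 and 33.2% at 13 to 15, where the neighbour lay between 12.5 and 50 kb away. Among the strong regions it was 31.8% (interval 25.3 to 38.8%) at 16 to 20 steps and 40.8% (interval 32.9 to 49.0%) at 21 to 54 steps. The share with a BAT region at that distance showed no such order, with 14.0% in the lowest class and 15.9% and 9.21% in the classes of strong regions.

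**Figure D3:**
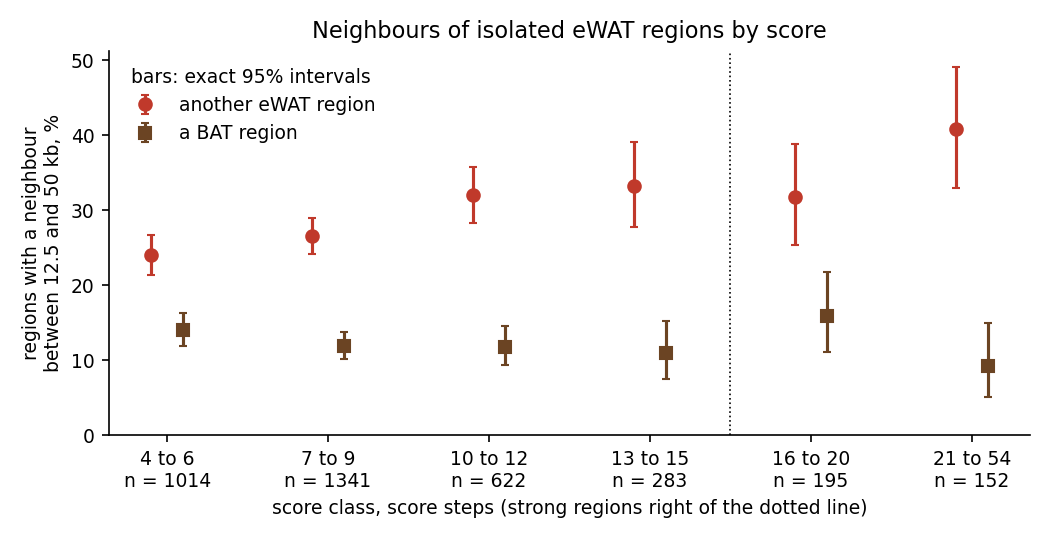
Share of isolated eWAT regions with a neighbour between 12.5 and 50 kb away (vertical axis, percent, with exact 95% binomial intervals as bars) by class of score in score steps (horizontal axis, n under each class). The share with another eWAT region (red circles) runs from 24.0% in the lowest to 40.8% in the highest class, while the share with a BAT region (brown squares) stays between 9.21% and 15.9%.

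In the order of all regions along a chromosome, 172 strong isolated regions (49.6%, interval 44.2 to 55.0%) had an eWAT region as the next region on both sides. For 121 (34.9%) the neighbours were 1 of each list, for 53 (15.3%, interval 11.7 to 19.5%) both were BAT regions, and 1 region had no listed region beyond it on its chromosome. Of the weaker isolated regions, 42.9% (interval 41.2 to 44.6%) lay between eWAT regions and 13.2% (interval 12.0 to 14.4%) between BAT regions. Over all eWAT regions these shares were 47.0%, which lies inside the interval of the strong isolated regions, and 11.7%. The nearest eWAT region was usually weak: its median score was 2.79, the same as for weaker isolated regions and for the whole list. It was itself at or above 5.57 for 44 strong isolated regions (12.7%, interval 9.37 to 16.6%) and for 9.97% (interval 8.96 to 11.0%) of weaker ones. Over all eWAT regions that share was 11.1%.

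Most strong isolated sites had no other such site within 100 kb. The median distance from a site to the nearest other one, on either side, was 1426 kb, and 26 of the 347 had another within 100 kb. No other set of the same size was compared, so this spacing cannot be called particular to these sites. The closest pair was chr8:127093616-127093815 and chr8:127109921-127110120, 16.3 kb apart with scores of 5.57 and 8.01, and no BAT region was within 100 kb of either. The next pair, chr11:102678833-102679032 (score 5.57) and chr11:102699676-102699875 (score 10.10), was 20.8 kb apart, with the nearest BAT region 37.2 and 58.1 kb away. After it came chr4:149435105-149435304 (score 9.75) and chr4:149461109-149461308 (score 8.01), 26.0 kb apart, with the nearest BAT region 60.3 and 86.3 kb away. On chromosome 12, chr12:16835379-16835578 and chr12:16871427-16871626, with scores of 8.36 and 10.80, were 36.0 kb apart and over 500 kb from any BAT region. No stretch of 1 Mb held more than 3 of these sites. These pairs were picked after their values were seen.

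A few sites were remote from every listed region, and others lay on the edge of brown fat regions. No region of either list was within 100 kb of 120 members (34.6%), and none was within 1000 kb of 4. These 4 were chrX:137125669-137125868 (score 6.97), chr17:52336181-52336380 (5.92), chr7:61543195-61543394 (5.92) and chr12:95748204-95748403 (5.57). All had 20 score steps or fewer, as did 195 of the 347 members (56.2%). At the other end, 13 members (3.75%) had a BAT region under 20 kb away. The nearest was at chr16:24056644-24056843 (score 5.57), 12.94 kb from a BAT region with a score of 5.22. At chr14:32773839-32774038 (score 6.62) and chr7:104660914-104661113 (score 5.92), BAT regions lay on both sides, 14.37 and 14.90 kb away at the nearest, while the next eWAT region was 312.5 and 228.7 kb away. These sites, too, were picked after their values were seen. The counts of 120, 4 and 13 were not made for other eWAT regions, so they cannot be called particular to members. A BAT region lay within 100 kb of 27.1% of members, 25.4% of weaker isolated regions and 28.3% of all eWAT regions. For an eWAT region the shares were 54.5%, 44.8% and 56.8%.

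The chromosomes differed in how many of their isolated white fat sites were strong. Over the genome, 347 of 3612 isolated eWAT regions (9.61%, interval 8.66 to 10.6%) were strong by the rule. Chromosome 12 had 29 of 160 (18.1%, interval 12.5 to 25.0%), the highest share, followed by chromosome 15 with 23 of 164 (14.0%, interval 9.10 to 20.3%). Chromosome 14 had 3 of 132 (2.27%, interval 0.471 to 6.50%), the lowest share of any chromosome with members. Chromosome X had 3 of 66 (4.55%, interval 0.947 to 12.7%). The intervals of chromosomes 12 and 14 were the only ones of 20 that did not contain the genome-wide share, and both were singled out after the values were seen. With the score limit at the 95th percentile, chromosome 12 had 7.50% (interval 3.94 to 12.7%), which contains the genome-wide 4.93%, whereas chromosome 14 had 0.758% (interval 0.0192 to 4.15%), which does not.

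The eWAT list held 197 regions on chromosome 12 and 194 on chromosome 14, with median scores of 3.14 and 2.79. Regardless of isolation, 37 of the former (18.8%) and 11 of the latter (5.67%) had a score of 5.57 or more. Of the 11 on chromosome 14, 6 had a close eWAT neighbour and 2 a close BAT neighbour, which left the 3 members chr14:32773839-32774038, chr14:66748896-66749095 and chr14:70976737-70976936 (score 6.27). In the BAT list the order of these chromosomes was the reverse, with intervals that overlap: strong regions were 8 of 135 isolated BAT regions on chromosome 12 (5.93%, interval 2.59 to 11.3%) and 10 of 115 on chromosome 14 (8.70%, interval 4.25 to 15.4%). Differences between chromosomes in read coverage or copy number were not tested.

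**Figure D4:**
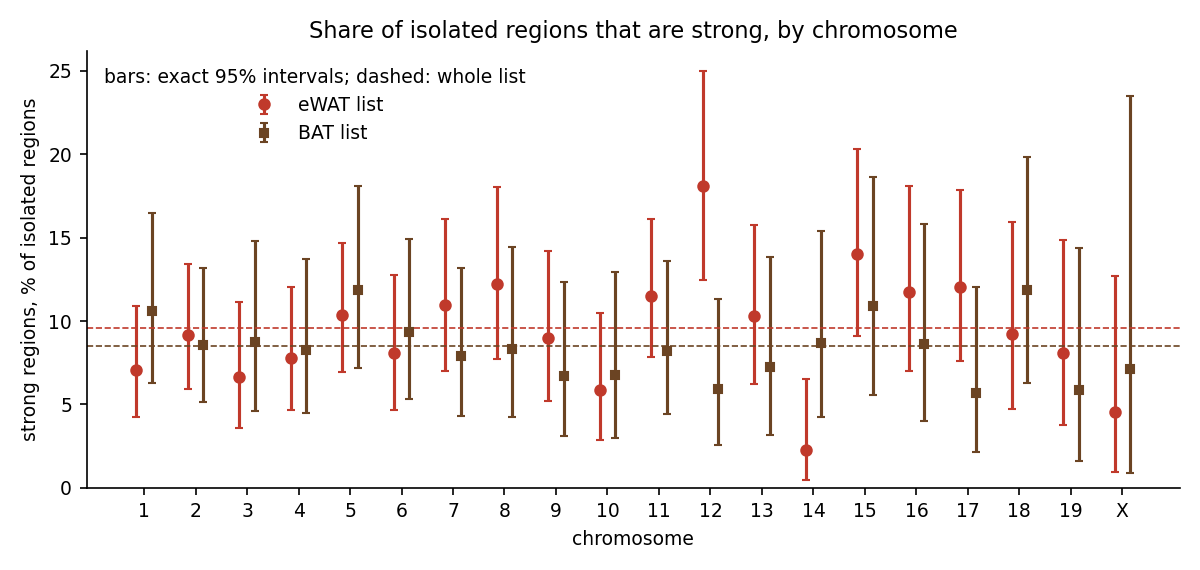
Strong regions as a share of isolated regions (vertical axis, percent) on each chromosome (horizontal axis) in the eWAT list (red circles) and the BAT list (brown squares), with exact 95% binomial intervals as bars and the whole-list shares of 9.61% and 8.51% as dashed lines. Chromosome 12 (18.1%) and chromosome 14 (2.27%) of the eWAT list lie farthest from the dashed line.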

How the data were processed

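Each tissue has 1 PPARγ ChIP-seq library, from the pooled DNA of 4 mice. The authors deposited for each a headerless list of 200 bp regions with a position, a name and a score whose unit is not stated. Bowtie and HOMER and the builds mm8 and mm9 are named, per the submitters' processing notes, without versions or roles. The peak threshold, the use of input DNA, the rule for tissue specificity and the library totals are, in the sources used here, not given. Samples were grouped by the tissue in the labels.

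Distances were taken between midpoints on the same chromosome with Python 3.11.15, numpy 2.4.6 and pandas 2.3.3. Score steps were fitted by least squares, and 99.8% of eWAT scores were whole steps within 0.005. Shares have exact (Clopper-Pearson) and medians order-statistic 95% intervals (scipy 1.17.1). They cover counting error only. No test was made, since a tissue has 1 library. The member rule and distances were tested on simulated lists, where all planted regions were found. The members, lists and named sites were chosen with earlier results of these data known. Named sites are the 20 highest-scoring members, those at the limits of the rule, and others, all picked after their values were seen. Planned work on genes, 11 gene lists, GC content, repeats and motifs was not run, because no genome or annotation of the build of the lists was used here.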

Additional observations from a re-analysis of the deposited data

How the results depend on the processing

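The number of strong isolated eWAT regions (347) became 178 at the 95th and 768 at the 80th percentile of the score, and 193 with a neighbour distance of 50 kb. It stayed within 1.5 times the reported number in the 4 other settings. Of these, leaving out chromosome Y could not change the number, since no member lies there. Lifting the upper score limit or the BAT condition could add only the 5 and 15 regions that they had left out. The median distance to the nearest BAT region (263.3 kb) became 324.0 kb with a neighbour distance of 50 kb, which removes every region with a BAT region closer than that. With the score limit at the 95th percentile, strong regions were 4.93% of isolated eWAT regions instead of 9.61%, and 7.50% instead of 18.1% on chromosome 12, which no longer stood apart from the genome-wide share. On chromosome 14 they were 0.758% instead of 2.27%. In 18 of the 24 settings run, counts stayed within 1.5 times, and medians and shares within the 95% interval, of the reported value. That of chromosome 14 was among them, but its reported share rests on 3 members and has a wide interval, 0.471 to 6.50%. Lifting the upper score limit or the BAT condition adds so few regions that medians and shares could hardly move. The 18 settings are therefore no measure of stability. The share with an eWAT region within 50 kb (35.2 to 38.8%), the median distance to the nearest other eWAT region, the share flanked by eWAT regions and the shares of isolated regions by chromosome were recomputed under settings chosen after seeing the data. Without the upper score limit 352 regions met the rule. Settings for genes, gene lists, motifs, GC content, repeats and the build mm8 were not run. No paired analysis was possible because there is a single library for each tissue, and for the same reason none could be left out. The score unit and depth are unknown, which limits the precision of members near 16 score steps.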
